A study of Mus musculus with 36 samples.

Results

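Broad H3K27me3 domains are long stretches of chromatin that carry trimethylated lysine 27 of histone H3. They were chosen by the measured H3K27me3 peaks themselves. Peaks of the 4 H3K27me3 lists were merged where they overlapped or touched, on autosomes only, and a merged region was kept when it was 10000 bp or longer and held a peak of both fasted pools. Of 25073 merged regions, 829 (3.31%) met this rule. The fasted lists therefore decided membership, and every H3K27me3 value given here for these domains is a description with no test. The domains were set against the 10 kb on either side of them and against the 7668 compact regions, which were under 10000 bp and also had a peak of both fasted pools.

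The chromatin came from crypts of the mouse small intestine. Fasted pools 2 and 5 came from mice without food for 24 h but with water, and fed pools 1 and 4 from mice with free food and water over the same time. Each pool joined crypts from 4 animals, of both sexes, singly housed and 6 to 12 weeks old, so a replicate is a pool. Mice of the labels' wildtype genotype came from C57BL/6J and from the Lgr5EGFP-IRES-CreERT2/+ line (B6.129P2-Lgr5tm1(cre/ERT2)Cle/J), a knock-in that places EGFP and an inducible Cre at the stem cell gene Lgr5, and which strain went into which pool is not stated in the sources used here. All pools shared 100 nM trichostatin A (TSA), a histone deacetylase inhibitor, during isolation, and a medium with 10 µM SB431542, an inhibitor of the TGF-β receptor kinase, and 10 µM Y-27632, a kinase inhibitor. Crosslinking in 1% formaldehyde took 10 min.

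H3K27me3 is written by Polycomb repressive complex 2, whose catalytic subunit is EZH2 or EZH1, and it is bound by canonical forms of Polycomb repressive complex 1. The pair keeps developmental genes silent in cell types that do not use them, often over long stretches. The same lysine cannot be acetylated while it is trimethylated, and its acetylated form, H3K27ac, marks active promoters and enhancers. H3K4me3, a promoter mark, can lie within Polycomb chromatin, a combination called bivalent where both are on the same nucleosome, which bulk data do not show. H3K4me1 marks enhancers, H3K79me2 follows transcribed gene bodies, and H3K9me3 marks another kind of silent chromatin. H3K9bhb and H4K12bhb are β-hydroxybutyryl marks of lysine, and the ketone body that gives them their acyl group rises in the blood during fasting.

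Peak lists of unequal length lie behind every value. H3K27me3 gave 18259 and 20887 peaks in fasted pools 2 and 5, against 6914 and 3760 in fed pools 1 and 4. H3K4me3 lists differed more, with 15079 and 18429 peaks in fasted pools 2 and 5, against 3430 and 295 in fed pools 1 and 4. Read depth is unknown, since a peak list carries no read totals, and the part of depth in any difference between lists was not tested. Fasted pool 2 and fed pool 1 shared the number 10 in the file names, and fasted pool 5 and fed pool 4 shared 11. These are called run 10 and run 11 here. The name rests on the file names only, and what the numbers stand for was not checked. Peak lists hold no expression, so the labelled tissue was not checked against marker genes. Positions are on the mm9 build, counted from 1, and carry no gene names because no annotation of that build was used here.

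The domains covered 13.9 Mb, or 22.8% of all merged H3K27me3 bases and 0.562% of the autosomes. Their median width was 13873 bp, with quartiles of 11508 and 19261 bp. Compact regions had a median of 2829.5 bp and all merged regions one of 1289 bp. The widest domain spanned 66257 bp, 182 domains reached 20 kb, 58 reached 30 kb and 17 reached 40 kb. The members just inside the limit were chr9:58330306-58340309 (10004 bp), chr3:89307917-89317924 (10008 bp) and chr7:72665137-72675149 (10013 bp). Just outside it lay chr1:169334276-169344260 (9985 bp), chr7:117003665-117013639 (9975 bp) and chr4:120396920-120406884 (9965 bp). These 6 regions were alike in fasted H3K27me3, with 67.5% to 98.1% of their length under peaks in pool 2 and 77.9% to 100% in pool 5. The width limit thus divided a continuous range. Without fasted pool 5 the rule gave 294 domains, so that list decided much of the membership.

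Domains were spread over all 19 autosomes, unevenly. Chromosome 2 held 97, chromosome 11 held 78, chromosome 7 held 62 and chromosome 5 held 60. Per 10 Mb the highest densities were 6.85 domains on chromosome 19 and 6.40 on chromosome 11, and the lowest was 1.12 on chromosome 16. They also lay near each other. The nearest other domain was a median of 219772 bp away, 318 domains had one within 100 kb and 139 within 10 kb. Another H3K27me3 region of any width lay within 1 kb of 636 domains (76.7%), against 54.3% of all merged regions. Most domains thus ended within 1 kb of further H3K27me3.

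H3K27me3 filled the domains in the fasted lists and lay in short pieces in the fed lists. Peaks covered 84.4% and 97.7% of the summed length in fasted pools 2 and 5, against 29.3% and 16.4% in fed pools 1 and 4. The median domain was covered over 86.7% and 99.3% in fasted pools 2 and 5, against 25.4% and 11.8% in fed pools 1 and 4. Exactly 1 H3K27me3 peak lay in 67 and 524 domains in fasted pools 2 and 5, against 141 and 234 in fed pools 1 and 4. Only fasted pool 5 thus had a single peak in most domains. Long single peaks were almost absent from fed lists: peaks of 10 kb or more numbered 256 and 665 in fasted pools 2 and 5, against 1 and 0 in fed pools 1 and 4.

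**Figure D1:**
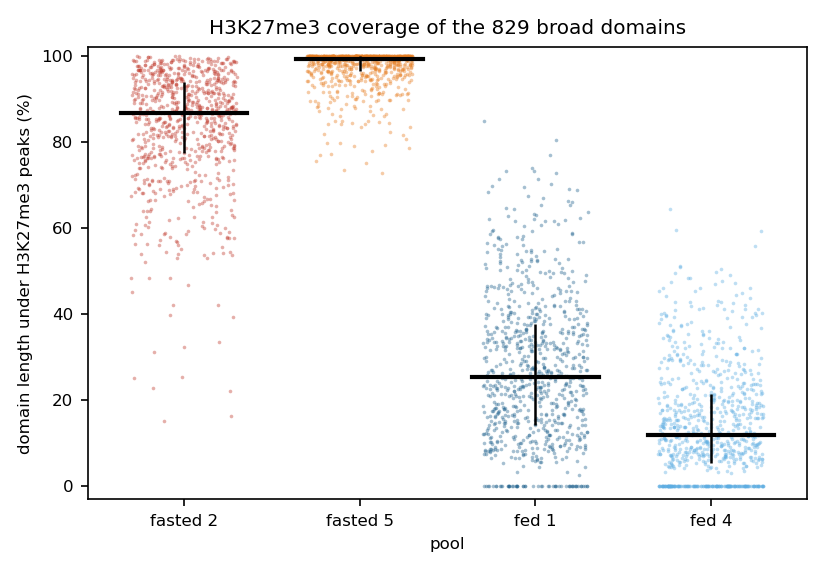
Percent of each domain's length under H3K27me3 peaks (vertical axis) in fasted pools 2 and 5 and fed pools 1 and 4, with 1 point per domain, a black line at the median and a vertical bar over the quartiles. Medians were 86.7% and 99.3% in fasted pools 2 and 5 and 25.4% and 11.8% in fed pools 1 and 4, and the row of points at 0 is the 55 and 174 domains without a peak in fed pools 1 and 4. Points are spread sideways at random.

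Most domains were nevertheless called in fed crypts. Both fed pools had a peak in 623 domains (75.2%), only fed pool 1 in 151, only fed pool 4 in 32, and neither in 23 (2.77%). Of all merged regions, 21.2% had peaks of both fasted pools and of neither fed pool. The rule used this contrast and width eases a meeting of peaks, so nothing is read from the smaller share. Domains called in both fed pools had a median width of 15096 bp and those called in neither one of 10921 bp. Of all H3K27me3 bases of a list, 33.2% and 26.4% lay inside the domains in fasted pools 2 and 5, against 48.4% and 53.4% in fed pools 1 and 4. The short fed lists were thus the more concentrated there.

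Pools of 1 condition also differed from each other. Fasted pool 5 covered more of the domain than fasted pool 2 in 733 domains, and fed pool 1 more than fed pool 4 in 645. No fed value exceeded that of fasted pool 5 in any domain. In 4 domains both fed pools exceeded fasted pool 2, and 3 of these were among the 10 widest. The widest of them was chr11:96019148-96080070, with 16.4% and 100% of its 60923 bp under peaks in fasted pools 2 and 5, against 48.3% and 46.0% in fed pools 1 and 4. Likewise chr2:38188093-38239900 had 15.1% and 99.1% in fasted pools 2 and 5, against 53.9% and 49.5% in fed pools 1 and 4. The other two were chr5:139999147-140043561 and chr5:98593251-98622259.

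Fasted pool 2 left long stretches of such domains without a peak. It had 13 uncovered stretches of 5 kb or more, which added up to 216.4 kb, the longest of them 48290 bp on chromosome 11. Fasted pool 5 covered 100% of these bases, and fed pools 1 and 4 covered 43.6% and 38.4% of them, more than the 29.3% and 16.4% they covered over all domains. The fed shares differed widely between stretches. On chromosome 2, a stretch of 43657 bp was covered over 58.0% and 51.9% in fed pools 1 and 4. Stretches of 6184, 6505 and 5707 bp on chromosomes 12, 17 and 18 had no peak of either fed pool. Fasted pool 5 itself left 1 stretch of 5 kb or more uncovered, of 10527 bp on chromosome 1. Fasted pool 2 covered it over its whole length. Over the 48290 bp on chromosome 11, fed pools 1 and 4 covered 60.9% and 58.0%, so a stretch without a call in fasted pool 2 was called in the other 3 lists. Reads were not analysed here, so whether the peak caller left out enriched stretches was not tested, and a missing call does not show missing H3K27me3.

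The 11 regions of 10 kb or more that were not members had the same look. All 11 had peaks of fasted pool 2 and of both fed pools and none of fasted pool 5. Their summed length of 232 kb was covered over 97.5% and 0% in fasted pools 2 and 5, against 49.6% and 35.0% in fed pools 1 and 4. The widest was chr15:102754854-102791649 (36796 bp), and 5 of the 11 lay within chr15:102735085-102875906. Others lay on chromosome 2 (74491427 to 74594313, 2 regions) and chromosome 6 (52101411 to 52222253, 2 regions). None had an H3K27ac, H3K9bhb or H4K12bhb peak in any pool, and 6 had an H3K4me3 peak in fasted pool 5. Chromosome X, outside the rule, had 1 region of 10 kb or more with both fasted pools, of 22780 bp.

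The authors' score, -10 times the log10 of the p of a peak, also set the longest peaks apart. In fasted pool 5 the median score was 1592.68 for H3K27me3 peaks of 10 to 15 kb and 1656.03 for those of 15 to 20 kb, but 741.65 for the 41 peaks of 30 kb or more. In fasted pool 2 it was 720.48 for peaks of 10 to 15 kb and 206.29 for the 3 peaks of 30 kb or more. The longest calls were thus not the highest-scoring ones in either fasted list.

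H3K4me3, the promoter mark, was the mark most often called inside the domains of fasted crypts. It was present in 269 (32.4%) and 531 (64.1%) of the 829 domains in fasted pools 2 and 5, against 40 and 3 in fed pools 1 and 4. Both fasted pools had an H3K4me3 peak in 265 domains (32.0%), against 4.81% of all merged H3K27me3 regions and 8.59% of compact regions. A wider region meets a peak more easily, so coverage per base is the fairer comparison. H3K4me3 covered 3.87% and 9.91% of the domains in fasted pools 2 and 5, against 0.281% and 0.0144% in fed pools 1 and 4. Compact regions came near these values, with 3.43% and 8.68% in fasted pools 2 and 5, against 0.300% and 0.00474% in fed pools 1 and 4. Over all autosomes H3K4me3 covered 1.45% and 1.93% in fasted pools 2 and 5, against 0.199% and 0.0127% in fed pools 1 and 4. In each list H3K4me3 coverage was therefore higher in the domains than over the autosomes, at 2.68 and 5.13 times that level in fasted pools 2 and 5 and at 1.41 and 1.14 times in fed pools 1 and 4.

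Fasted and fed coverage of the domains by H3K4me3 did not overlap. The means were 6.89% ± 4.27 in fasted pools and 0.148% ± 0.189 in fed pools (SD, n = 2 each), a difference of 6.74 points. A two-sided exact permutation test gave p = 0.333, the smallest that 2 pools against 2 allow, and 0.778 after Benjamini-Hochberg adjustment over the 7 other marks. The difference was 3.59 points in run 10 and 9.89 in run 11. In 230 domains (27.7%) both fasted pools had an H3K4me3 peak and neither fed pool did, against 4.26% of all merged regions. The 2 fed lists were also the 2 shortest of the mark. With the lists of each mark cut to the top-scoring peaks, as many as in its shortest list (295 for H3K4me3), the difference was 0.0267 points. Such short lists leave little room for a difference, and the cut also changed the domains, to 696. With coverage taken as a multiple of the autosomal level of each list, the difference was 2.63, in the same direction. No domain had an H3K4me3 peak in a fed pool without one in a fasted pool.

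H3K4me3 lay deep inside the domains and not only at their ends. In fasted pool 5 it covered 4.33% of the first kb inside the edges, 6.59% at 2 to 3 kb and 13.0% at 4 to 5 kb. Fasted pool 2 was flatter along the same distance, with 2.80% in the first kb and 4.43% at 4 to 5 kb. Of the H3K4me3 peaks that met a domain, 307 of 356 (86.2%) in fasted pool 2 and 641 of 711 (90.2%) in fasted pool 5 lay wholly within it. These peaks were narrower than those elsewhere, with medians of 1446 against 2102 bp in fasted pool 2 and of 1808 against 2333 bp in fasted pool 5. A domain usually held 1 such peak: 204 domains had 1 and 65 had more in fasted pool 2, and 385 had 1 and 146 had more in fasted pool 5, up to 5 in a domain.

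Most H3K4me3 bases inside the domains also lay under H3K27me3 peaks in the fasted lists, but not in the fed lists. The rule chose the domains by fasted H3K27me3, so a high fasted overlap was built in and is a description only. In fasted pool 2, 91.7% of the H3K4me3 bases inside the domains also lay under an H3K27me3 peak of that pool, which covered 84.4% of all domain bases. In fasted pool 5 the shares were 99.2% and 97.7%, and in fed pool 1 they were 42.5% and 29.3%. Fed pool 4 had 3 H3K4me3 peaks inside the domains. There the shares were 31.7% and 16.4%, so the H3K4me3 share was above that of the domains as a whole in all 4 pools. Where H3K4me3 was called in both fasted pools it filled a median of 10.8% of the domain in pool 2 and 18.8% in pool 5.

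Set against the flanks, H3K4me3 was higher inside in both fasted pools and slightly lower in both fed pools, a contrast that was not tested. Inside minus flank was 1.53 points in fasted pool 2 and 6.83 in fasted pool 5, against -0.136 in fed pool 1 and -0.000626 in fed pool 4. The fed pool 4 value set 0.0144% inside, on 3 peaks, against 0.0150% in the flank, so its sign carries little. The mean was 2.05 ± 3.27 points (SD, n = 4), higher inside in 2 of 4 pools, with a two-sided exact sign-flip permutation p of 0.5 and 0.7 after adjustment over the 7 marks. Set against compact regions the mean difference was 0.416 ± 0.581 points (SD, n = 4), higher in 3 of 4 pools, with an exact p of 0.375 and 0.438 after adjustment. Neither difference exceeded the spread between pools. With fasted pool 5 left out, also from the choice of domains, which leaves 294, inside minus flank averaged 0.715 points.

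**Figure D2:**
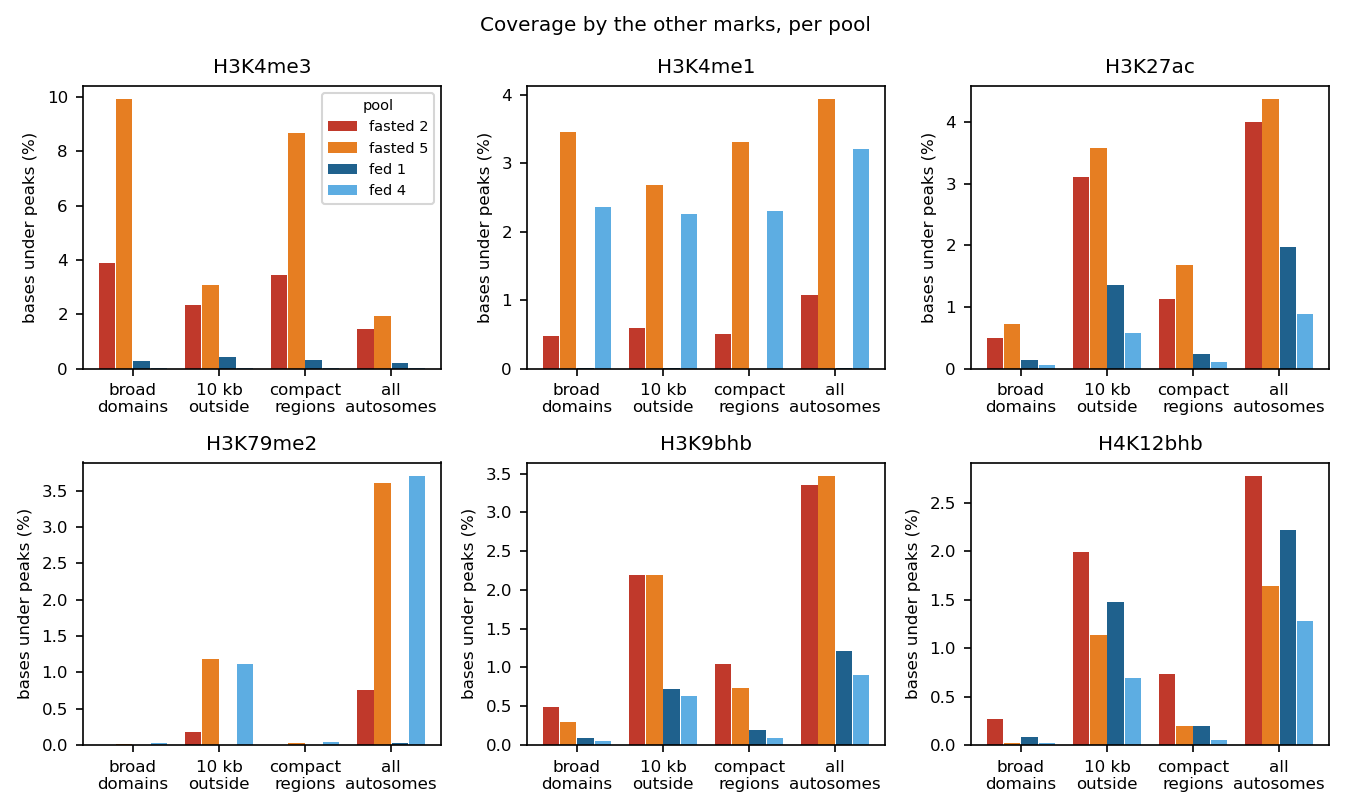
Percent of bases under peaks (vertical axis, a scale of its own for each mark) in the broad domains, in the 10 kb outside them, in compact H3K27me3 regions and in all autosomes, with 1 bar per pool and fasted pools 2 and 5 left of fed pools 1 and 4. H3K27ac, H3K79me2, H3K9bhb and H4K12bhb have their lowest bars, or bars at 0, in the broad domains, whereas the fasted H3K4me3 bars are highest there (3.87% and 9.91%).

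H3K4me1, the enhancer mark, followed the runs more than the conditions. It was present in 51 and 255 domains in fasted pools 2 and 5, against 2 and 192 in fed pools 1 and 4. Both fasted pools had it in 36 domains (4.34%), against 0.670% of all merged regions. It covered 0.477% and 3.45% of the domains in fasted pools 2 and 5, against 0.0143% and 2.35% in fed pools 1 and 4. The fasted and fed values overlapped, with a difference of 0.781 points and an exact permutation p of 0.667, 1 after adjustment. Without fasted pool 5 it was -1.03 points, and leaving out fed pool 1 gave -0.398 points. Inside minus flank averaged 0.189 ± 0.394 points (SD, n = 4), higher inside in 3 of 4 pools, with an exact sign-flip p of 0.625 and 0.729 after adjustment. Broad minus compact averaged 0.0448 ± 0.0723 points (SD, n = 4; exact p = 0.375, adjusted 0.438). As with H3K4me3, most H3K4me1 peaks that met a domain lay wholly inside it, 91.2% and 90.1% in fasted pools 2 and 5 and 89.4% in fed pool 4.

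H3K27ac was scarce inside the domains in all 4 pools. It covered 0.498% and 0.722% of them in fasted pools 2 and 5, against 0.132% and 0.0584% in fed pools 1 and 4. The flanks had 3.11% and 3.58% in fasted pools 2 and 5, and 1.35% and 0.576% in fed pools 1 and 4. All autosomes had 4.00% and 4.37% in fasted pools 2 and 5, and 1.97% and 0.887% in fed pools 1 and 4. The flanks thus lay below the autosomal level, at 0.779 and 0.819 times it in fasted pools 2 and 5 and at 0.686 and 0.649 times in fed pools 1 and 4. The domains lay much further below that level, at 0.125 and 0.165 times in fasted pools 2 and 5 and at 0.0667 and 0.0659 times in fed pools 1 and 4.

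Coverage by H3K27ac was lower inside the domains than in the flanks in 4 of 4 pools. The differences were -2.62 and -2.85 points in fasted pools 2 and 5, and -1.22 and -0.517 in fed pools 1 and 4. Their mean was -1.80 ± 1.12 points (SD, n = 4), with an exact sign-flip p of 0.125, the smallest that 4 pools allow, and 0.292 after adjustment over the 7 marks. Compact regions had 1.13% and 1.69% in fasted pools 2 and 5, and 0.236% and 0.0985% in fed pools 1 and 4. Broad domains lay below them in 4 of 4 pools, with a mean difference of -0.436 ± 0.442 points (SD, n = 4; exact p = 0.125, adjusted 0.292). It was -0.123 points with equal numbers of top-scoring peaks and -0.259 without fasted pool 5 (exact p = 0.5 over the other 3 pools). With all 4 pools in the choice of domains, the broad domains as a whole were thus poorer in H3K27ac per base than the compact regions in every pool. In their first kb inside the edges, coverage was 1.67% and 2.07% in fasted pools 2 and 5. In fed pools 1 and 4 it was 0.389% and 0.126% there. These values were above those of the compact regions, whose median width was 2829.5 bp. Broad and compact regions were not matched for distance from the edge.

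More H3K27ac was called inside the domains in fasted than in fed lists. The means were 0.610% ± 0.158 in fasted pools and 0.0950% ± 0.0517 in fed pools (SD, n = 2 each), a difference of 0.515 points, with an exact permutation p of 0.333 and 0.778 after adjustment. It was 0.367 points in run 10, 0.664 in run 11 and 0.183 without fasted pool 5. With each list cut to the same number of top-scoring peaks it was also 0.183 points, and at a score of 100 or more 0.335. The whole H3K27ac lists also differed, with 37974 and 35917 peaks in fasted pools 2 and 5. Fed pools 1 and 4 had 27640 and 15504. As a multiple of the autosomal level of each list, the difference was 0.0787, in the same direction. Both fasted pools had an H3K27ac peak in 41 domains (4.95%), against 1.70% of all merged regions and 2.60% of compact regions. In the flanks both fasted pools had one at 145 domains (17.5%). By pool the mark was inside 50 and 76 domains in fasted pools 2 and 5, against 15 and 5 in fed pools 1 and 4.

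In the fasted lists H3K27ac covered more of the first kb inside the domains than of the kb further in, up to 5 kb. In fasted pool 2 it covered 2.75% of the last kb outside, 1.67% of the first kb inside and 0.445% at 4 to 5 kb inside. In fasted pool 5 the values were 3.62%, 2.07% and 0.568%. Of the peaks that met a domain, 20 of 61 (32.8%) in fasted pool 2 and 39 of 91 (42.9%) in fasted pool 5 lay wholly within it, so most crossed an edge. In fasted pool 2, 75.8% of the H3K27ac bases in the domains lay under an H3K27me3 peak of that pool, which covered 84.4% of all domain bases. In fasted pool 5 the same shares were 92.7% and 97.7%, and in fed pool 1 they were 6.15% and 29.3%. Fed pool 4 went the other way, with 39.5% and 16.4%, on 7 peaks.

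**Figure D3:**
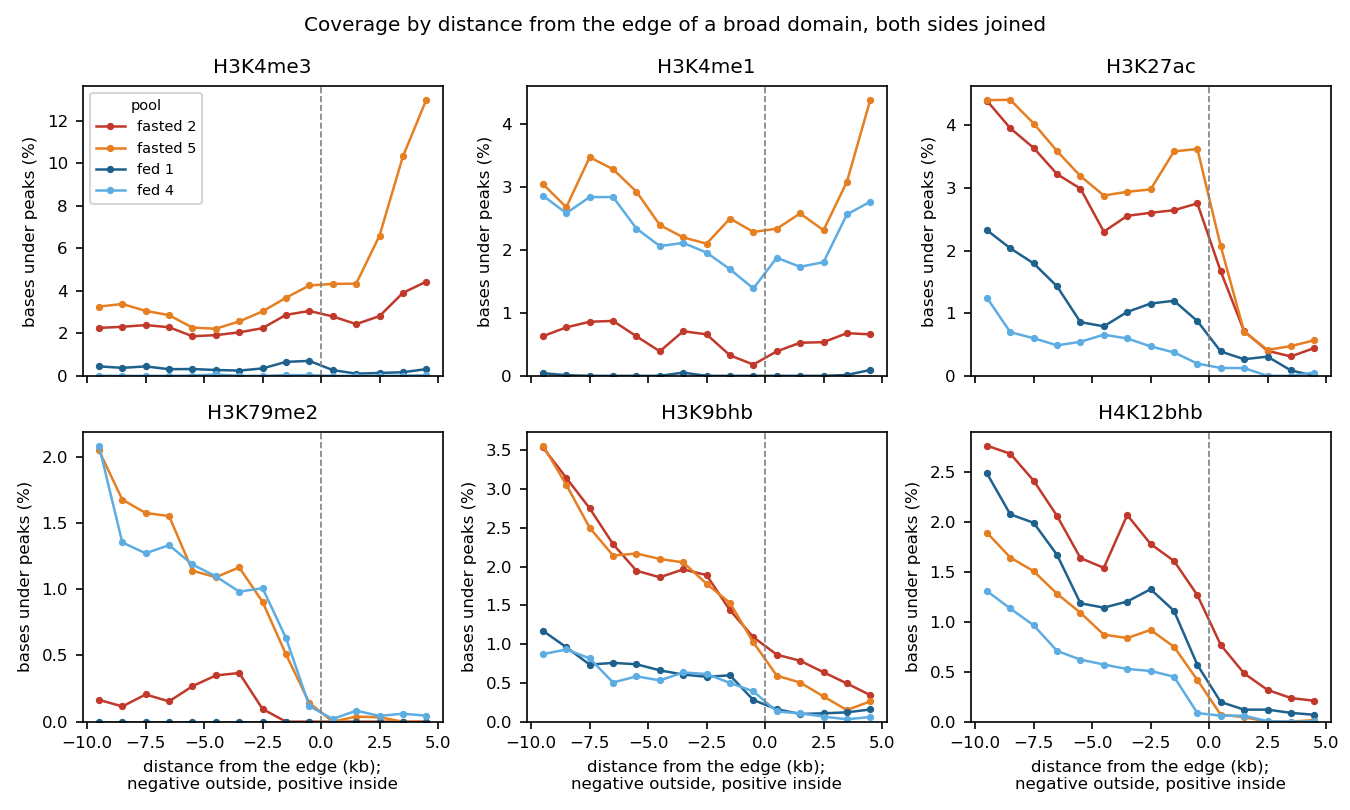
Percent of bases under peaks (vertical axis, a scale of its own for each mark) by distance from the edge of a domain in kb, in steps of 1 kb with both edges joined, negative outside and positive inside, with 1 line per pool. In fasted pools 2 and 5 H3K27ac went down across the edge to 0.445% and 0.568% at 4 to 5 kb inside, and H3K4me3 reached 4.43% and 13.0% there.

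The β-hydroxybutyryl marks were scarce as well. H3K9bhb covered 0.493% and 0.302% of the domains in fasted pools 2 and 5, against 0.0901% and 0.0575% in fed pools 1 and 4. The flanks had 2.19% in each of fasted pools 2 and 5, and 0.718% and 0.629% in fed pools 1 and 4. Inside minus flank was below 0 in 4 of 4 pools, with a mean of -1.20 ± 0.70 points (SD, n = 4), an exact sign-flip p of 0.125 and 0.292 after adjustment. Relative to all autosomes the domains had 0.147 and 0.0869 times the H3K9bhb coverage in fasted pools 2 and 5, and 0.0745 and 0.0640 times in fed pools 1 and 4. Broad domains were also below compact regions in 4 of 4 pools, with a mean difference of -0.282 ± 0.254 points (SD, n = 4; exact p = 0.125, adjusted 0.292). This shrank to -0.116 points at a score of 100 or more (exact p = 0.375) and to -0.121 with equal numbers of top-scoring peaks (exact p = 0.25), and it was -0.352 for domains called in all 4 pools (exact p = 0.5).

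H3K9bhb inside the domains was higher in both fasted than in both fed pools. The means were 0.397% ± 0.135 in fasted pools and 0.0738% ± 0.0231 in fed pools (SD, n = 2 each), a difference of 0.323 points, with an exact permutation p of 0.333 and 0.778 after adjustment. It was 0.403 points in run 10 and 0.244 in run 11, and 0.141 without fasted pool 2 or 0.171 without fasted pool 5. Lists cut to one length gave 0.0482 points, and at a score of 100 or more 0.139. The whole H3K9bhb lists also differed, with 38934 and 37640 peaks in fasted pools 2 and 5. Fed pools 1 and 4 had 19555 and 13923. With coverage taken as a multiple of the autosomal level of each list, the difference was 0.0478, in the same direction. The mark met 30 and 20 domains in fasted pools 2 and 5, against 7 and 5 in fed pools 1 and 4. Both fasted pools had it in 14 domains (1.69%), against 0.846% of all merged regions. In the flanks both fasted pools had it at 83 domains (10.0%). The longer fasted lists thus placed few of their peaks in Polycomb domains.

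H4K12bhb, the acyl mark on histone H4, showed no common direction between conditions. It covered 0.269% and 0.0211% of the domains in fasted pools 2 and 5, against 0.0790% and 0.0219% in fed pools 1 and 4. The difference of means was 0.0948 points with an exact permutation p of 1 and an adjusted value of 1. It was 0.190 points in run 10, -0.000749 in run 11 and -0.0280 without fasted pool 2. Inside minus flank was again below 0 in 4 of 4 pools, with a mean of -1.22 ± 0.44 points (SD, n = 4; exact sign-flip p = 0.125, adjusted 0.292). Broad minus compact was below 0 in 4 of 4 pools too, with a mean of -0.194 ± 0.186 points (SD, n = 4; exact p = 0.125, adjusted 0.292), and -0.108 at a score of 100 or more, -0.126 with equal numbers of top-scoring peaks, -0.125 without fasted pool 2 and -0.101 in run 11. Both fasted pools had the mark in 2 domains (0.241%), against 0.371% of all merged regions.

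Acyl marks and H3K27ac met in the same few domains. Of the 14 domains with H3K9bhb in both fasted pools, 9 had H3K27ac and 10 had H3K4me3 in both fasted pools. In any pool, 48 domains (5.79%) had H3K9bhb or H4K12bhb, and 37 of these also had H3K27ac in some pool. No domain had an acyl mark in both fasted pools and H3K27ac in no pool. Conversely, of the 41 domains with H3K27ac in both fasted pools, 32 lacked H3K9bhb in at least 1 of them.

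H3K79me2, the mark of transcribed gene bodies, was nearly absent. It covered 0% and 0.00855% of the domains in fasted pools 2 and 5, against 0% and 0.0301% in fed pools 1 and 4. The flanks had 0.174% and 1.18% in fasted pools 2 and 5, and 0% and 1.11% in fed pools 1 and 4. Inside was lower than the flank in the 3 pools with any coverage there, with a mean of -0.607 ± 0.606 points (SD, n = 4), an exact sign-flip p of 0.25 and 0.438 after adjustment. Broad domains and compact regions had a mean difference of -0.0102 points (exact p = 0.25, adjusted 0.438). Fasted and fed pools overlapped, with a difference of -0.0108 points and an exact permutation p of 1. No domain had the mark in both fasted pools, against 0.00798% of all merged regions.

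H3K9me3 was called in 3 domains in fasted pool 5 and in none in fasted pool 2 or in fed pools 1 and 4. It covered 0% and 0.0221% of the domains in fasted pools 2 and 5, against 0% in both fed pools. No domain had it in both fasted pools, against 0.00399% of all merged regions. The difference between conditions was 0.0111 points (exact permutation p = 1), inside minus flank averaged 0.00336 points (exact p = 1) and broad minus compact averaged -0.000805 points (exact p = 0.5, also 0.5 after adjustment). The H3K9me3 lists held 521 and 4376 peaks in fasted pools 2 and 5 and 208 and 59 in fed pools 1 and 4, so a domain without a call need not lack the mark.

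By combination, 552 domains (66.6%) had no other mark in both fasted pools, and 253 (30.5%) had none of the 7 in any pool. In the counts that follow, a mark counted only when called in both fasted pools, so one left out could still be called in a single pool. H3K4me3 alone was the most frequent finding among the others, in 207 domains (25.0%). H3K4me3 came without H3K27ac in 230 domains and with it in 35. It came with H3K4me1 in 31 domains. Most domains with another mark in both fasted pools thus held H3K4me3 in both but did not hold H3K27ac in both.

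H3K4me3 was more frequent in wider domains up to 30 kb, while H3K27ac showed no such order. In width classes of 10 to 12.5, 12.5 to 15, 15 to 20, 20 to 30 and at least 30 kb, H3K4me3 was called in both fasted pools in 25.2%, 28.0%, 34.9%, 48.4% and 36.2% of domains. Per base the widest class had least: H3K4me3 covered 2.07% and 5.92% of it in fasted pools 2 and 5, while the other classes had 4.05% to 4.37% in pool 2 and 9.95% to 11.3% in pool 5. H3K27ac was called in both fasted pools in 5.88%, 3.43%, 3.61%, 7.26% and 3.45% of the same classes. None of the 58 domains of 30 kb or more had H3K9bhb, H4K12bhb or H3K79me2 in any pool. Of all 829 domains, 789 lacked H3K9bhb, 808 lacked H4K12bhb and 827 lacked H3K79me2 in every pool.

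**Figure D4:**
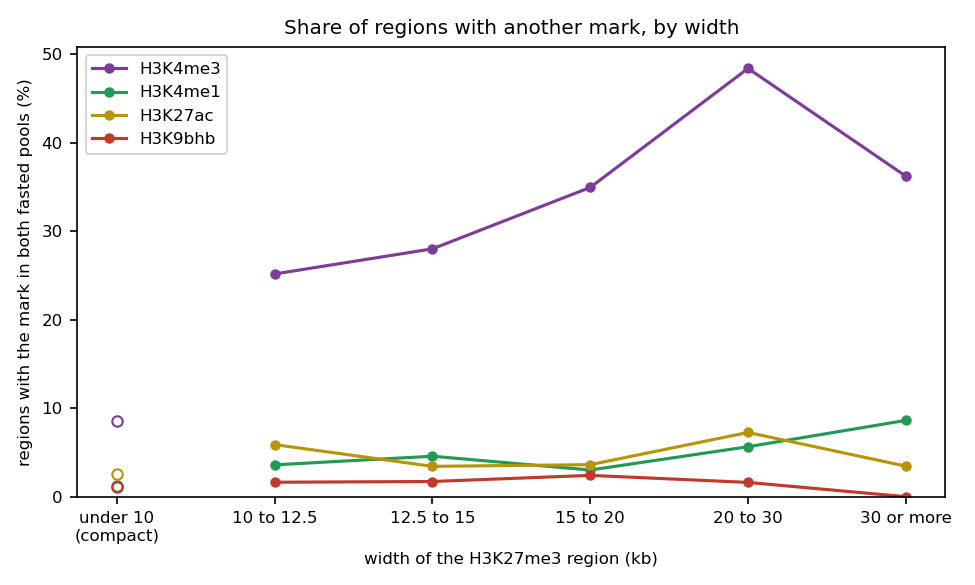
Percent of regions with a peak of another mark in both fasted pools (vertical axis) by width of the H3K27me3 region in kb, with 1 line per mark over the 306, 175, 166, 124 and 58 domains of the 5 classes and open circles for compact regions. H3K4me3 goes up to 48.4% at 20 to 30 kb and is 36.2% at 30 kb or more, and the other marks stay under 10%.

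Most of the 10 widest domains had H3K4me3 in fasted pool 5, as did 64.1% of all domains. None had it in a fed pool, where 40 and 3 of all 829 domains had it in fed pools 1 and 4. The widest, chr1:78152852-78219108, had 96.4% and 99.6% H3K27me3 coverage in fasted pools 2 and 5, against 35.7% and 20.7% in fed pools 1 and 4. H3K4me3 covered 6.04% and 10.7% of it in fasted pools 2 and 5 and none in the fed pools, in short peaks over 37 kb or more from its start. The third, chr9:91243514-91303163 (59650 bp), had 85.3% and 99.9% H3K27me3 in fasted pools 2 and 5, against 12.0% and 5.20% in fed pools 1 and 4. The domains chr19:43652877-43704765, chr13:78303499-78355113 and chr8:59785975-59836651 had H3K4me3 in fasted pool 5 and in no other pool. None of the 10 widest had H3K27ac, H3K79me2, H3K9bhb, H4K12bhb or H3K9me3 in any pool, as was usual. Of all 829 domains, 741 lacked H3K27ac in every pool, 827 lacked H3K79me2, 789 H3K9bhb, 808 H4K12bhb and 826 H3K9me3. In chr5:139999147-140043561 the only other mark was H3K4me1, over 2.52% and 4.70% in fasted pools 2 and 5 and over 0% and 2.27% in fed pools 1 and 4.

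The 5 domains with the highest mean fed H3K27me3 coverage were 11365 to 23282 bp wide. The first was chr3:96132326-96143700 (11375 bp), with 95.8% and 99.8% in fasted pools 2 and 5, against 80.5% and 51.2% in fed pools 1 and 4. It was 1 of 40 domains with H3K4me3 in fed pool 1. The next, chr15:76344665-76356661, had 92.6% and 100% in fasted pools 2 and 5, against 73.1% and 55.7% in fed pools 1 and 4, and carried H3K4me3 over 24.0% and 27.3% of its length in fasted pools 2 and 5. The others were chr9:62981027-63004308, chr7:52660390-52676427 and chr15:100868540-100879904, and all 5 had H3K4me3 in fasted pool 5, as did 64.1% of all domains.

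In a single domain, chr11:118902509-118913601, H3K27me3, H3K4me3, H3K4me1, H3K27ac and both acyl marks were all called in both fasted pools. The domains chr11:115175285-115198453 and chr3:89032566-89044040 each had all of these in fasted pool 2 and lacked only H4K12bhb in fasted pool 5. In chr11:118902509-118913601 (11093 bp) H3K27me3 covered 94.5% and 99.9% in fasted pools 2 and 5, against 12.6% and 10.1% in fed pools 1 and 4. H3K27ac covered 99.0% and 87.5% in fasted pools 2 and 5, against 56.4% and 13.2% in fed pools 1 and 4. H3K9bhb covered 95.9% and 72.8% in fasted pools 2 and 5, against 9.06% and 32.3% in fed pools 1 and 4. It was the domain with the highest fasted coverage of both acyl marks, and H4K12bhb covered 97.7% and 25.0% in fasted pools 2 and 5, against 80.8% and 27.4% in fed pools 1 and 4. Acetyl and trimethyl marks of lysine 27 were therefore called over nearly the whole of it in the same fasted pools.

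Other domains with H3K9bhb in both fasted pools kept to shorter stretches. In chr11:115175285-115198453 it covered 39.6% and 45.0% in fasted pools 2 and 5, against 3.14% and 0% in fed pools 1 and 4, with H3K27ac over 26.8% and 25.6% in fasted pools 2 and 5 and none in the fed pools. In chr3:89032566-89044040 it covered 34.4% and 19.6% in fasted pools 2 and 5 and none in the fed pools. In chr10:79758292-79780059 it covered 33.0% and 12.2% in fasted pools 2 and 5 and none in the fed pools, with H3K27ac over 2.81% and 3.10%. These domains were chosen for high fasted coverage by the mark, which favours fasted over fed values, so nothing is read from that contrast. Chosen in the same way was chr14:70003070-70015689, with 17.3% and 23.7% in fasted pools 2 and 5, against 63.7% and 23.2% in fed pools 1 and 4. There H3K27ac was called in the fed pools alone, over 19.1% and 21.5%, and H3K27me3 in fed pool 4 (64.5%) was the highest fed pool 4 value of any domain. H4K12bhb in both fasted pools was found in 1 further domain, chr17:56276173-56291874, over 13.5% and 0.516% in fasted pools 2 and 5 and in neither fed pool.

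A few domains held much of the acetyl and acyl coverage, above all in the fed lists. In 3 domains H3K27ac, H3K9bhb or H4K12bhb covered over 50% of the length in some pool: the chromosome 11 domain of 11093 bp, chr14:70003070-70015689 and chr12:112678991-112690742. The third was chosen after its values were seen, and H3K9bhb covered 52.8% of it in fasted pool 2 and none in the other 3 pools. Together these 3 held 27.8% and 26.4% of the H3K9bhb bases inside the domains in fasted pools 2 and 5, against 72.3% and 81.6% in fed pools 1 and 4. Of the H3K27ac bases they held 21.2% and 11.8% in fasted pools 2 and 5, against 47.4% and 82.1% in fed pools 1 and 4. Of the H4K12bhb bases they held 29.0% and 94.5% in fasted pools 2 and 5, against 81.8% and 100% in fed pools 1 and 4. In the other 826 domains H3K9bhb covered 0.357% and 0.222% in fasted pools 2 and 5, against 0.0250% and 0.0106% in fed pools 1 and 4. Without the 3 the difference between fasted and fed means was 0.272 points for H3K9bhb and 0.476 points for H3K27ac, each with an exact permutation p of 0.333.

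The domains richest in the marks of active chromatin were chosen for the number of those marks in both fasted pools. Besides domains already described they included chr13:73670908-73681076, with H3K27ac over 33.1% and 37.3% in fasted pools 2 and 5, against 13.3% and 0% in fed pools 1 and 4. Its H3K27me3 coverage was 58.8% and 97.1% in fasted pools 2 and 5, against 15.9% and 0% in fed pools 1 and 4. In chr4:48057746-48072919 H3K4me3 covered 26.5% and 28.7% in fasted pools 2 and 5, against 1.79% and 0% in fed pools 1 and 4, and H3K27ac 0.751% and 6.77% in fasted pools 2 and 5, against 0% and 0.672% in fed pools 1 and 4. Both carried H3K4me3, H3K27ac and H3K4me1 in both fasted pools.

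**Figure D5:**
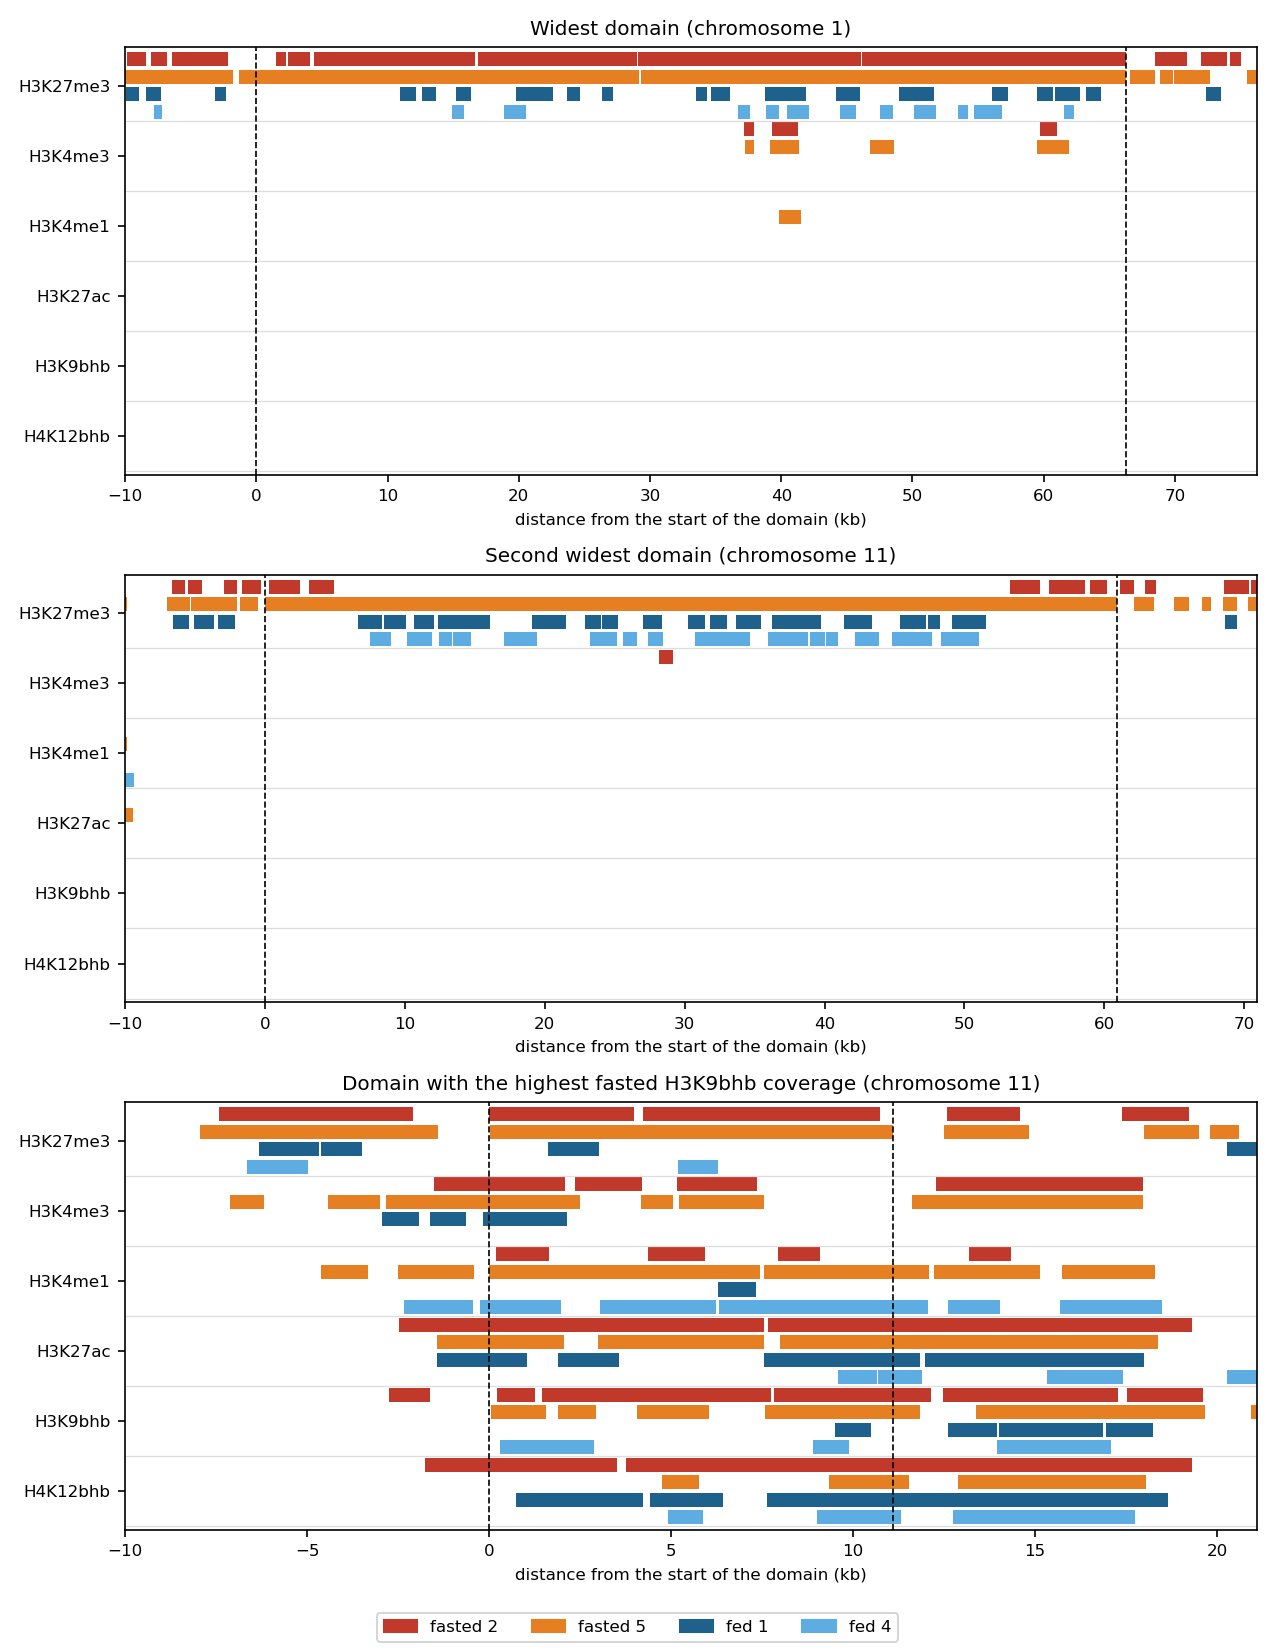
Peaks of 6 marks along 3 domains and 10 kb on either side, by distance from the start of the domain in kb, with fasted pools 2 and 5 above fed pools 1 and 4 in each mark and dashed lines at the edges. The widest domain and the next widest, both without H3K27ac, H3K9bhb or H4K12bhb inside, stand above the chromosome 11 domain of 11093 bp in which all 6 marks were called, and in the next widest fasted pool 2 has no H3K27me3 call over 48290 bp.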

How the data were processed

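Chromatin immunoprecipitation and sequencing of 8 marks and an input in 4 pools gave 36 samples, and the 32 deposited peak lists were used here. The authors' score is -10 times the log10 of p, with a lowest value of 50 (p = 1e-05), and per the file names MACS 1 called the peaks of each library with its own pool's input as control and no model. FastQC, Bowtie 1.1.2, SAMtools 1.9, deepTools 1.5.11 and mm9 are listed in the submitters' processing notes. Antibody yield and depth move peak number and width, and depth per sample is not given in the sources used here, so no counting interval was given.

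Intervals were handled with Python 3.11.15, numpy 2.4.6 and pandas 2.3.3, tests run with scipy 1.17.1 and figures drawn with matplotlib 3.10.9. Interval functions matched bedtools 2.31.1 in 4 of 4 checks and passed 5 of 5 checks on simulated data. A mark was called in a domain at an overlap of 1 bp. Coverage is the percent of summed length under peaks. Flanks are the 10 kb on each side without other domains, and the autosomal span runs to the last peak end of each chromosome. Fasted against fed pools took two-sided exact permutation tests, and inside against flank or compact regions by two-sided exact sign-flip permutation tests over the 4 pools, with Benjamini-Hochberg adjustment over 7 marks. The smallest p these allow are 0.333 and 0.125. P-values measure the spread between pools.

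Named domains are the 10 widest, the 5 with the highest mean fed H3K27me3 coverage, up to 5 with the highest fasted coverage by each acyl mark in both fasted pools, the 5 with most active marks in both fasted pools, and the 3 on each side of the width limit, besides those said to be chosen later and those that a count of few regions singles out. Members, lists and tests were chosen with earlier results of these data known. Alternatives were a higher score, equal list lengths, other merging, widths, membership rules and flanks, removal of domains with H3K9me3, scaling to autosomal coverage, each pool left out, each run alone and, chosen after seeing the data, removal of the 3 domains most covered by H3K27ac or acyl marks. Sequences are not shown, since no genome of the mm9 build was used here, and the inputs had no list of their own among the files used.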

Additional observations from a re-analysis of the deposited data

Results flagged for a closer look

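H3K4me3 coverage inside the broad domains minus that in the 10 kb outside had opposite signs in the conditions. It was 1.53 points in fasted pool 2 and 6.83 points in fasted pool 5, against -0.136 points in fed pool 1 and -0.000626 points in fed pool 4. Both fasted values were thus above 0 and both fed values below it. In fed pool 4 this was 0.0144% inside against 0.0150% outside, so the sign there carries little. The difference between conditions was not tested. Fed pool 4 held 295 H3K4me3 peaks, of which 3 met a domain.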

How the results depend on the processing

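Over 18 alternatives, 299 of 349 values kept their direction, 33 reversed and 17 became 0 or, for the number of domains, moved by over 1.5 times. H3K27ac, H3K9bhb and H4K12bhb stayed lower inside than in the flank, and lower in broad than in compact regions, in the mean over pools under every alternative run. Their inside minus flank values ran from -2.68 to -1.20, from -1.78 to -0.708 and from -1.80 to -0.824 points, each widest with flanks free of H3K27me3 and smallest from 20000 bp. Their broad minus compact means ran from -0.572 to -0.123, from -0.366 to -0.116 and from -0.288 to -0.101 points. No alternative matched broad and compact regions for distance from the edge. H3K27ac, H3K9bhb and H3K4me3 stayed higher in fasted than in fed pools under every alternative run, from 0.183 to 0.710, from 0.0482 to 0.494 and from 0.0267 to 10.4 points on the percent scale. The number of domains was 1401 when merged across gaps of up to 1000 bp, 2542 from 5000 bp, 182 from 20000 bp, and 294 to 828 with 1 pool left out, lowest without fasted pool 5. The causes of the following changes were not tested. H4K12bhb fasted minus fed was -0.000749 in run 11, and -0.0280 (without fasted pool 2) to 0.125 with 1 pool left out. For H3K4me3, broad minus compact was -0.229 at a score of 100 or more, -0.00881 with equal numbers of peaks, -0.297 when merged across gaps, -0.281 from 20000 bp and -1.42 for domains called in all 4 pools, and inside minus flank was -0.0819 with equal numbers. For H3K4me1, broad minus compact was -0.0850 at a score of 100 or more, -0.00203 with equal numbers, -0.228 when merged across gaps, -0.357 from 20000 bp, -0.162 with 50% covered in both fasted pools, -1.37 for domains called in all 4 pools, -0.00737 in run 10 and -0.0398 without the 3 domains most covered by H3K27ac or acyl marks. H3K4me1 fasted minus fed was -0.00450 with equal numbers, -0.361 when scaled to autosomal coverage, and -1.03 (without fasted pool 5) to 2.33 with 1 pool left out. H3K4me1 inside minus flank was -0.0641 at a score of 100 or more, -0.00358 with equal numbers, -0.290 when merged across gaps, -0.128 with flanks free of H3K27me3 and -0.0542 in run 10. H3K79me2 broad minus compact was 0.00294 at a score of 100 or more, 0 with equal numbers, 0.00530 from 20000 bp and 0.00636 for domains called in all 4 pools. H3K79me2 fasted minus fed was 0 with equal numbers and in run 10, and -0.0261 (without fed pool 1) to 0.00428 (without fed pool 4) with 1 pool left out. H3K9me3 broad minus compact was 0 with equal numbers and 0.00349 from 20000 bp. H3K9me3 fasted minus fed was 0 at a score of 100 or more, with equal numbers, in run 10 and without domains that had H3K9me3, and 0 (without fasted pool 5) to 0.0199 with 1 pool left out. H3K9me3 inside minus flank was 0 at a score of 100 or more and with equal numbers, -0.000291 from 5000 bp, -0.00400 without domains that had H3K9me3, -0.00196 in run 10, and 0 (without fasted pool 5) to 0.00453 with 1 pool left out. Replicate numbers pair no pools, since fed pools carry 1 and 4 and fasted pools 2 and 5. The pools do pair by run, and within runs 10 and 11 fasted minus fed was 0.462 and 1.099 points for H3K4me1, 0 and -0.0216 for H3K79me2 and 0 and 0.0221 for H3K9me3, with those of the other marks given beside them. With 2 runs these are values without a test. With 2 or 4 pools, no exact p reached 0.05, and list length limits what an uncalled mark shows.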

Other observations

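Distances from the domains to the nearest peak, with 0 for a peak inside, differed between marks. For H3K4me3 the medians were 21.0 and 0 kb in fasted pools 2 and 5, against 138 and 1655 kb in fed pools 1 and 4. The nearest H3K27ac peak was a median of 46.0 and 36.1 kb away in fasted pools 2 and 5, against 67.2 and 93.6 kb in fed pools 1 and 4. For H3K9bhb the medians were 70.4 and 63.6 kb in fasted pools 2 and 5, against 103 and 125 kb in fed pools 1 and 4. For H4K12bhb they were 62.3 and 76.3 kb in fasted pools 2 and 5, against 71.4 and 91.3 kb in fed pools 1 and 4. The H3K9bhb distances were longer than those of H3K27ac in all 4 pools, and list lengths differed between pools and marks.

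H3K9bhb, H3K79me2 and H3K27ac covered more of the flanks at 9 to 10 kb than beside the domains in fasted pool 5, and H3K4me3 covered less. In fasted pools 2 and 5 H3K9bhb covered 1.09% and 1.02% of the last kb outside, and 3.54% and 3.56% at 9 to 10 kb, close to the autosomal 3.35% and 3.47%. H3K79me2 in fasted pool 5 covered 0.141% of the last kb and 2.05% at 9 to 10 kb, below the autosomal 3.60%. H3K27ac covered 2.75% and 3.62% of the last kb in fasted pools 2 and 5, and 4.39% and 4.40% at 9 to 10 kb, against autosomal levels of 4.00% and 4.37%. H3K4me3 covered 3.05% and 4.25% of the last kb in fasted pools 2 and 5, and 2.25% and 3.26% at 9 to 10 kb.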
